A study of Homo sapiens with 4 samples.

Results

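The data described here are the signals of 10 genes of the mesenchymal program in U87TR-Da, a human glioblastoma line derived from U87MG and studied with and without expression of DACH1. The genes were chosen by name: the transcription factors SNAI1, SNAI2, TWIST1, ZEB1 and ZEB2, the cadherins CDH2, CDH11 and CDH13, the filament gene VIM and the surface receptor gene CD44. Earlier results of these data were known when they were chosen. Of these, 9 were measured, by 33 of the 41091 probe sets that match a single gene, out of 19775 genes in all. CDH13 was not analysed here.

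Total RNA of 4 samples was read on 4 Affymetrix arrays, 1 per condition, so no condition was replicated. DACH1, a nuclear repressor of transcription, was silenced or induced, and each state was grown in DMEM with 10% serum or in a Neurobasal medium without serum that carried N-2, B-27, bFGF and EGF. All 4 samples share the same line in their labels, 72 h at 1 µg/mL doxycycline, so how the silenced cultures were handled is not stated there. The labels do not say whether U87TR-Da is a single clone. The arrays had median signals of 15.7 to 19.3, and with 4 of them precision is limited throughout. Each is a bulk sample, in which fewer cells with a transcript and less of it per cell cannot be told apart.

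SNAI1, SNAI2, TWIST1, ZEB1 and ZEB2 encode the core factors of the epithelial to mesenchymal transition. They bind the E-box, a short DNA element, and repress junction genes such as CDH1, the E-cadherin gene, while cells gain N-cadherin, vimentin and motility. In glioblastoma, which is not an epithelial tumour, the same factors, N-cadherin, vimentin and the hyaluronan receptor CD44 go with the mesenchymal state and with invasion.

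The labels were checked first. With the probe set that represents it, of 3 for the gene, DACH1 was 35.2-fold higher after induction under the serum label (126.0, then 4431) and 26.9-fold higher under the serum-free label (32.5, then 875.1). Its other 2 probe sets did not show this: one stayed under the floor, and the other read 23.1 and 24.7, then 12.1 and 2.9. With the first probe set DACH1 was lower under the serum-free label in both states, by 3.88-fold and 5.06-fold. The medium labels went against genes known to respond to such media. Of 11 immediate targets of FGF and EGF signalling, 9 fell in the arrays labelled serum-free, whose medium contains both factors, and of 9 targets of SRF, TGF-beta and BMP signalling, pathways that serum is known to activate, 8 rose (limma, adjusted p at most 0.05). Over all 12103 genes tested, 12.7% fell and 15.4% rose. The lists of targets were chosen with earlier results of these data known, so these counts are no independent check of the labels. Of the 9 targets that fell, FOS and ETV4 passed the filter only through the arrays labelled serum, which leaves 7. DUSP6 fell 37.4-fold, EGR1 28.3-fold and SPRY2 11.9-fold, and CNN1 rose 20.1-fold, ID3 18.1-fold and ID1 10.2-fold. EGR1 read 1284 and 1571 labelled serum and 66.4 and 38.0 labelled serum-free, and ID3 read 45.2 and 75.7 against 1122 and 998.9. Sterol synthesis genes gave 1 higher (LSS, 2.19-fold) and 0 lower of 9. The media are therefore named by their labels throughout, and every direction between media rests on them.

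As a check of the cell type, 4 of 8 astrocyte and glioma markers lay at or under the floor of 10.9, the level below which signals are not ranked here, on all 4 arrays: GFAP (at most 5.1), S100B, AQP4 and SOX2. NES lay between 19.6 and 35.8, and OLIG2 read 58.4 and 79.9 labelled serum and 12.2 and 12.3 labelled serum-free. FABP7 read at most 12.6. VIM, which is on this list and also among the genes studied here, was bright, at 6065 to 9278. Of the epithelial genes, CDH1 read at most 7.4, 5 of 22 stayed under the floor and 20 of 22 under 100 on every array, and 7 passed the filter of the fit, CLDN1 (to 50.7) and KRT8 (to 45.6) among them. The list had a summed signal of 1241 to 1272 labelled serum and 1714 to 1775 labelled serum-free. The 2 genes of it that reached 100 were TJP1, a junction scaffold gene that is not limited to epithelia, at 973.1 to 1226, and MUC1. Of 5 keratinocyte, 6 endothelial and 5 leukocyte markers, 0, 1 and 1 reached 100 on any array, and their summed signals ran from 64.8 to 107.9, 105.2 to 186.1 and 240.8 to 675.6. The latter were KDR, which fell from 72.1 and 127.8 to 26.7 and 23.1, and LCP1, which fell from 536.0 and 634.2 to 233.5 and 226.1. TEK rose 1.91-fold to 34.9, and PTPRC, the pan-leukocyte marker, read 0.6 to 11.1. The part of these genes in the results was not tested.

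The upstream sequences of the 3 genes the results turn on are shown because the factors among them read E-boxes and because ZEB2 and CDH2 had the largest fitted differences between medium labels, in opposite directions. Sequences are from RefSeq (GRCh38.p14), 250 bases before the farthest upstream start listed, 5′ to 3′ on the gene's strand. Entries of 5 of the 10 genes were read, and SNAI2 was left out of this search. Capitals mark E-boxes, CANNTG, which reads the same on both strands. ZEB1 is on the plus strand (chr10:31318167-31318416), and ZEB2 (chr2:144520120-144520369) and CDH2 (chr18:28177131-28177380) are on the minus strand.
ZEB1: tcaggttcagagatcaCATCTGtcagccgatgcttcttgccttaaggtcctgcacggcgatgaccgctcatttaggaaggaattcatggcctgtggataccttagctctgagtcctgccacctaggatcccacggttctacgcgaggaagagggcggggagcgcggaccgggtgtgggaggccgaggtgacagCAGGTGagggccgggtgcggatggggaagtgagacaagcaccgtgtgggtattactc
ZEB2: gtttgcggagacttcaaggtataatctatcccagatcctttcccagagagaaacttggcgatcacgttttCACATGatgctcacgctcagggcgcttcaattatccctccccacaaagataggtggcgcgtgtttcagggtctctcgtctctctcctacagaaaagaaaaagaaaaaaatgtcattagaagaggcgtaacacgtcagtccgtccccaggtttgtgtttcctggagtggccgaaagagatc
CDH2: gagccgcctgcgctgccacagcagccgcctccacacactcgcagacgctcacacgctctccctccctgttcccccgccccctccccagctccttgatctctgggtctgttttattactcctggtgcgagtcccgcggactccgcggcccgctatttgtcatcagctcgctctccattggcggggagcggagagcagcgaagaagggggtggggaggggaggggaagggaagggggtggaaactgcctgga

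The variant bound by the SNAI and ZEB proteins is CACCTG, or CAGGTG on the other strand, a subset of CANNTG. The ZEB1 window held 1 such match, whose first base lies 57 bases before the start, and the windows of ZEB2 and CDH2 held 0. Of all 35116 promoter entries, 17.5% held CACCTG or CAGGTG in the same length and 61.8% held CANNTG. Among 12 entries for ZEB1, ZEB2, CDH2, VIM and CD44, 2 held the former, both of ZEB1. A match is a description of letters, not a binding site.

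Of the 9 measured genes, 7 passed the filter for the fit over all arrays (2 of 4 arrays at or above the median signal of 17.2). SNAI1 and CDH11 did not. SNAI1, the first of the Snail family, read 3.0 with DACH1 silenced and 2.5 with it induced under the serum label, then 5.1 and 1.8 under the serum-free label, all below the floor. The 4 probe sets of CDH11, which encodes a type II cadherin of mesenchymal cells, lay between 0.8 and 13.8. No fold is given for either gene between arrays at the floor.

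**Figure D1:**
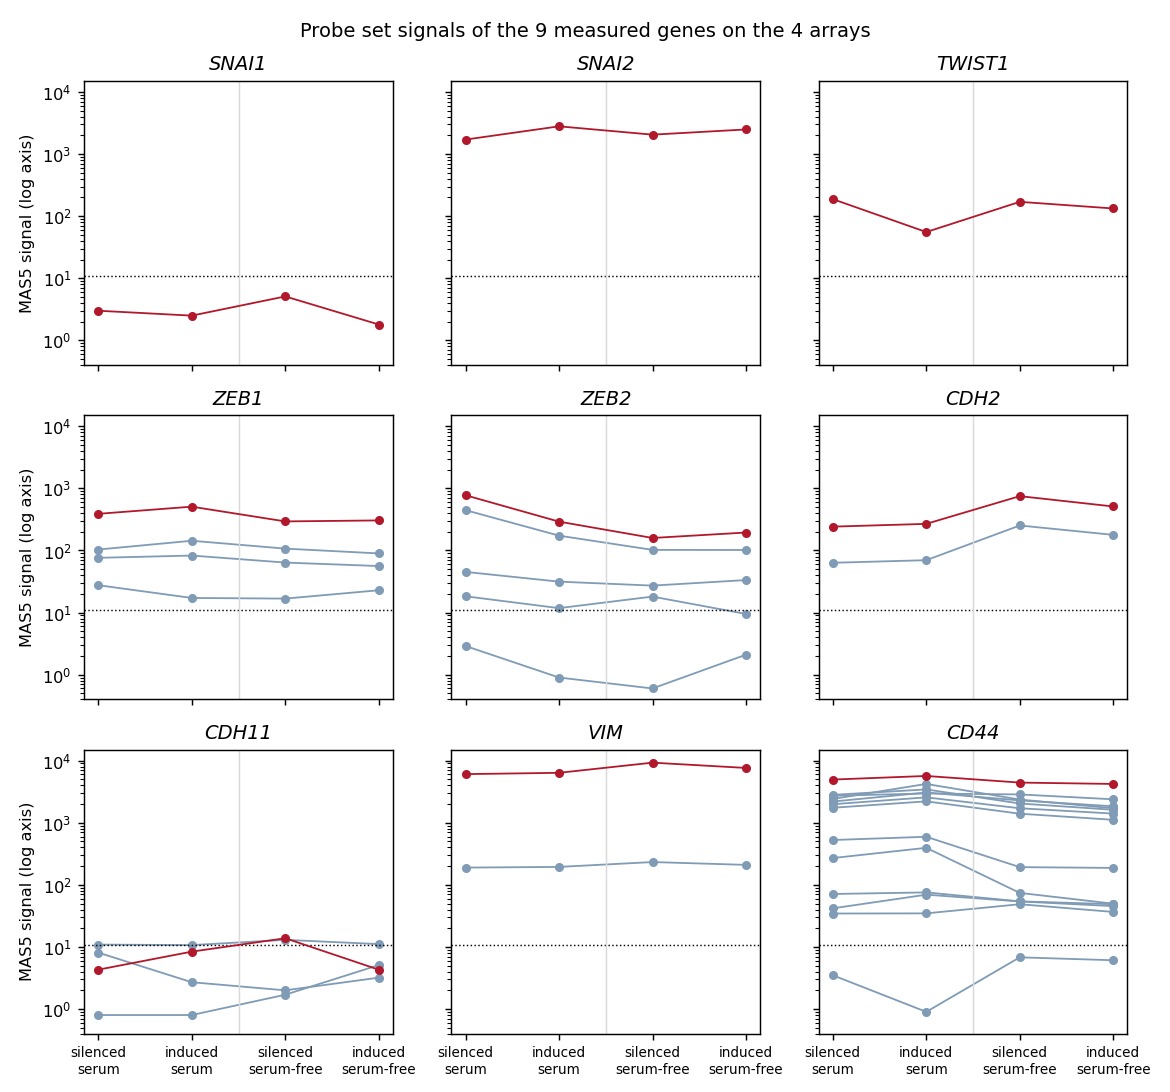
MAS5 signal (log axis) of every probe set of the 9 measured genes on the 4 arrays, with 1 point per array, the probe set that represents the gene in red, the others in blue and the floor of 10.9 dotted. SNAI1 and CDH11 stay near or under the floor, ZEB2 is highest on the silenced array labelled serum, TWIST1 is lowest on the induced one, and both CDH2 lines step up in the arrays labelled serum-free.

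The first comparison asked what DACH1 induction does to these genes. In the arrays labelled serum, TWIST1 and ZEB2 were lower with DACH1 induced, by 3.39-fold and 2.66-fold, and SNAI2 was 1.63-fold higher. In the arrays labelled serum-free, none of the 7 genes differed by 2-fold. With 1 array a group there is no test of either pair, and "higher" and "lower" describe these arrays.

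TWIST1, a basic helix-loop-helix factor of the neural crest and mesoderm, read 188.2 with DACH1 silenced and 55.5 with it induced under the serum label. Labelled serum-free it read 170.1 and 133.0, or 1.28-fold lower. The induced array labelled serum stood apart, and the other 3 lay within 133.0 to 188.2.

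ZEB2, a zinc finger and homeodomain repressor, read 775.9 and 291.6 labelled serum and 159.1 and 194.7 labelled serum-free with its brightest probe set. Its next brightest read 446.5 and 173.4, then 102.3 and 101.9. In both, the silenced array labelled serum was the highest by far and the induced array of that label came next. The 4 probe sets of ZEB2 that passed the filter were all lower with DACH1 in the arrays labelled serum, by 1.43-fold to 2.66-fold. Labelled serum-free, 2 were above 0 and 2 below.

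SNAI2, which encodes Slug, the Snail factor of neural crest migration, read 1712 and 2797 labelled serum and 2054 and 2491 labelled serum-free, the second 1.21-fold higher with DACH1 induced. Both induced arrays were above both silenced arrays, and the share of all genes separated in this way was not counted. ZEB1, the paralogue of ZEB2, read 389.5 and 507.8, then 294.0 and 305.0, which was 1.30-fold and 1.04-fold higher. Its 4 probe sets were mixed, with 3 of 4 above 0 labelled serum and 2 of 4 labelled serum-free.

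Among the surface and filament genes, CDH2, the N-cadherin gene, read 242.2 and 268.4 labelled serum and 750.3 and 511.6 labelled serum-free, so it was 1.11-fold higher and then 1.47-fold lower with DACH1. The latter was the largest difference of the 7 genes under the serum-free label. Its other probe set gave 1.10-fold higher and 1.42-fold lower. VIM, the intermediate filament gene of mesenchymal cells, read 6065 and 6366, then 9278 and 7626, or 1.05-fold higher and 1.22-fold lower. The former turned to a log2 difference of -0.0026 with quantile normalization.

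CD44, the hyaluronan receptor gene, is covered by 13 probe sets, of which 12 passed the filter. Its brightest read 4955 and 5666 labelled serum and 4431 and 4214 labelled serum-free. All 12 were above 0 with DACH1 induced in the arrays labelled serum (median log2 difference 0.32, the smallest 0.01), and all 12 below 0 in those labelled serum-free (median -0.30). With quantile normalization the counts were 12 above 0 and, labelled serum-free, 11 below 0 with the brightest at 0. These probe sets read transcripts of the same gene on the same arrays and are not replicates. Among them, 209835_x_at differed most between the labels among the 7 that reached 1000 on every array: 2415 and 4215, then 2362 and 1710. The pair of signs is not particular to CD44. With the probe sets that represent them, CDH2 and VIM had it too, and SNAI2, TWIST1, ZEB1 and ZEB2 did not. Its share over all genes was not counted.

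Set against all genes, 2 of the 7 genes were at least 2-fold lower labelled serum, where 4.77% of 12190 compared genes were, and 0 were higher, where 2.91% were (7.69% either way). With the mean of all its probe sets ZEB2 fell short of 2-fold, at a log2 difference of -0.79. Labelled serum-free, 0 of 7 passed 2-fold in either direction, against 3.74% of 12659 genes (1.02% higher and 2.73% lower, a split that quantile normalization moved from 72.8% to 58.4% lower). The median log2 difference of the 7 was 0.15 labelled serum and -0.07 labelled serum-free, and that of all genes was 0.01 and -0.00.

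In the fit of both pairs together, limma with medium as a second term called 0 of the 7 genes and 0.0% of 12103 genes at an adjusted p of 0.05, while 585 genes had an unadjusted p under 0.05. DACH1 itself, 30.8-fold higher (log2 4.94, SE 0.20), had an adjusted p of 0.234 in this fit by limma, so the absence of calls says little about the members. TWIST1 had a log2 difference of -1.06 (SE 0.40, limma adjusted p 0.931, lower in 2 of 2 induced arrays), SNAI2 of 0.49 (SE 0.21, adjusted p 0.931, higher in 2 of 2) and ZEB2 of -0.56 (SE 0.46, adjusted p 0.931, lower in 1 of 2). The other 4 lay between -0.20 and 0.22. The median over the 7 was -0.11, beside 0.01 over all genes. The labels name no repeated cultures. The error of this fit comes from how far the DACH1 difference changed between the medium labels, moderated by limma over all genes. The same holds for the fitted difference between media. The p-values therefore do not measure scatter between repeated cultures or arrays.

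**Figure D2:**
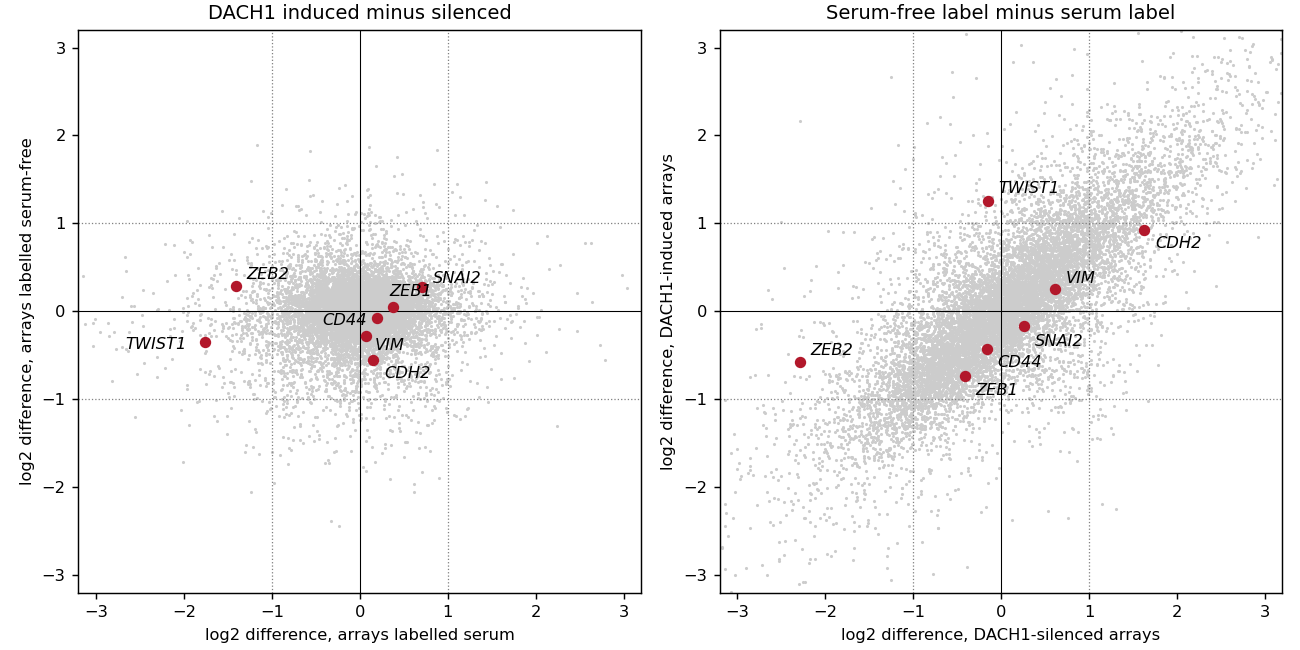
Log2 differences between 2 arrays for the 7 genes that passed the filter (red) and all genes compared in both pairs (grey), with DACH1 induced minus silenced on the left and serum-free minus serum label on the right, dotted lines at 2-fold, and genes beyond the axis limits not drawn. On the left, TWIST1 (-1.76) and ZEB2 (-1.41) lie beyond 2-fold only along the axis of the arrays labelled serum. On the right, CDH2 (1.63 and 0.93) lies above 0 and ZEB2 (-2.29 and -0.58) below 0 on both axes.

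The second comparison set the medium labels against each other in the same cells. CDH2 rose 2.43-fold in the arrays labelled serum-free and was the only one of the 7 genes that passed the test. ZEB2 was 2.70-fold lower, which did not pass. TWIST1 was 2.40-fold higher in DACH1-induced cells alone.

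CDH2 read 242.2 and 268.4 in the silenced and induced arrays labelled serum, against 750.3 and 511.6 labelled serum-free. Both values of one label were above both of the other. How many of all genes were separated in this way was not counted, and 28.1% passed the test between media in either direction. It was 3.10-fold higher in silenced and 1.91-fold higher in induced cells, and its dimmer probe set was 3.99-fold and 2.56-fold higher (63.4 and 69.8, then 252.8 and 178.5). The fitted log2 difference was 1.28 (SE 0.25, limma adjusted p 0.0357, higher in 2 of 2 arrays). The call was lost without a floor (adjusted p 0.0563 by limma) and without a filter (0.278), and over 11 alternatives the adjusted p ran from 0.0108 to 0.278. When each probe set was tested on its own, both probe sets of CDH2 rose (log2 differences 1.28 and 1.68, limma adjusted p 0.0294 and 0.0176).

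ZEB2 was lower under the serum-free label by 4.88-fold with DACH1 silenced and by 1.5-fold with it induced. All 4 of its filtered probe sets had a fitted difference below 0, though it was only -0.32 for 235593_at and -0.07 for 233031_at. The last of these read 9.5 to 18.3, near the floor. The fitted log2 difference of the brightest was -1.43 (SE 0.46, limma adjusted p 0.0906), and it passed in 3 of 11 alternatives (adjusted p 0.0391 to 0.504). Tested as probe sets, 228333_at fell (-1.45, SE 0.37, limma adjusted p 0.0483). The silenced array labelled serum weighs on this value: without it the log2 difference was -0.58.

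ZEB1 was lower in both states, 1.32-fold and 1.66-fold, with a fitted log2 difference of -0.57 (SE 0.20, limma adjusted p 0.101). All 4 of its probe sets had a fitted value below 0, between -0.57 and -0.15. TWIST1 was 1.11-fold lower in silenced and 2.40-fold higher in induced cells (log2 difference 0.56, SE 0.40, limma adjusted p 0.338). SNAI2 was 1.20-fold higher and then 1.12-fold lower, and its fitted value of 0.05 (SE 0.21) turned to -0.04 with quantile normalization. VIM was 1.53-fold and 1.20-fold higher (0.44, SE 0.20, limma adjusted p 0.169).

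For CD44 the answer depended on the probe set. The brightest gave a log2 difference of -0.29 (SE 0.19, limma adjusted p 0.296), and the 7 that reached 1000 on every array lay between -0.78 and -0.12. Probe set 217523_at read 526.8 and 594.1 labelled serum and 192.8 and 187.2 labelled serum-free, a fall of 2.73-fold in silenced and 3.17-fold in induced cells. Probe set 229221_at read 269.9 and 394.5, then 74.1 and 49.7, a fall of 3.64-fold and 7.94-fold.

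These were the 2 of 12 CD44 probe sets that fell when each probe set was tested (log2 differences -1.56 and -2.43, SE 0.21 and 0.33, limma adjusted p 0.0150 and 0.0154). In that fit 12.4% of 23629 probe sets fell and 16.3% rose (28.8% in all). Of the other 10, 9 had a value below 0 and 1, 234411_x_at, above it (0.29). Which part of the CD44 transcripts each probe set reads was not analysed here, so these values do not say whether the gene or some of its transcript forms differed. The difference between probe sets was not tested.

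**Figure D3:**
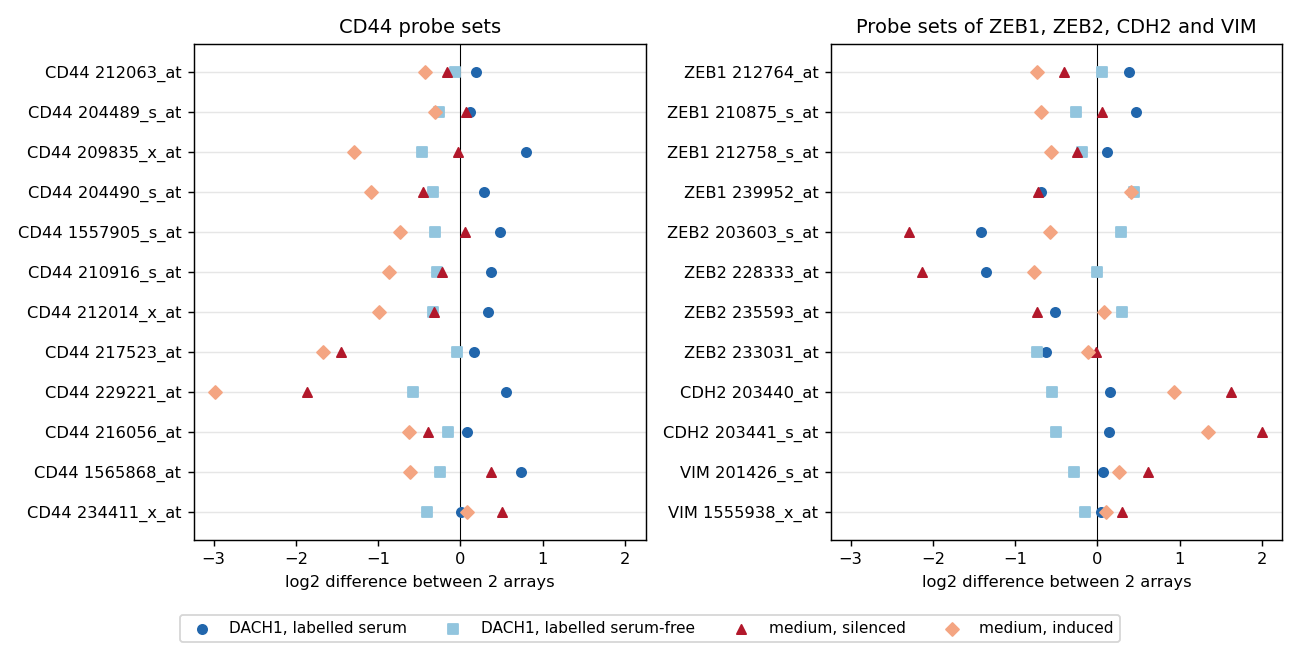
Log2 difference between 2 arrays for each filtered probe set of CD44 (left) and of ZEB1, ZEB2, CDH2 and VIM (right), with circles and squares for DACH1 induced minus silenced and triangles and diamonds for serum-free minus serum label. Every CD44 circle lies above 0 and every square below 0, and the triangles and diamonds of 217523_at and 229221_at lie between -2.99 and -1.45. Both CDH2 probe sets lie above 0 in the medium comparison.

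Against the background, the fit called 1 of 7 genes higher and 0 lower, where 15.4% of 12103 genes rose and 12.7% fell. The median of the 7 was 0.05 and that of all genes 0.02. At 2-fold in silenced cells, CDH2 was higher and ZEB2 lower, where 15.3% and 12.2% of 12906 genes were (27.5% in all). In induced cells TWIST1 alone was higher, where 14.0% of 12371 were, and 0 of 7 were lower, where 10.1% were (24.1% in all). With the mean of all probe sets CDH2 joined TWIST1 there, at a log2 difference of 1.14.

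How far the DACH1 difference depended on the medium label is a description, because the 4 arrays leave no error for an interaction. The log2 difference labelled serum-free minus that labelled serum was 1.70 for ZEB2 and 1.41 for TWIST1. It was -0.70 for CDH2, -0.43 for SNAI2, -0.35 for VIM, -0.33 for ZEB1 and -0.27 for CD44. The 2 genes with a DACH1 difference past 2-fold had the largest values of the 7. That difference is itself part of the value, so this is no separate result. For CDH2 and VIM the DACH1 difference was larger in size under the serum-free label, and for the other 5 under the serum label. These are values of the probe sets that represent the genes. For ZEB1, ZEB2 and CD44 some of the other probe sets had the larger DACH1 difference in size under the serum-free label. The value between labels was below 0 for every filtered CD44 probe set.

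Related genes were read from lists around the 10, against the same shares of all tested genes, 15.4% higher and 12.7% lower. Between DACH1 states labelled serum, 2.91% of 12190 compared genes were at least 2-fold higher and 4.77% lower. Apart from TWIST2, the genes named for that pair were picked for passing 2-fold in it. Of 9 tested genes among the other transition factors, 3 fell in the arrays labelled serum-free and 0 rose (median log2 difference -0.50, limma). PRRX1, a homeobox gene of limb and cranial mesenchyme, fell 8.74-fold (1759 and 952.3, then 175.1 and 125.3, adjusted p 0.0167), and HMGA2, an architectural chromatin protein gene, fell 6.31-fold (2061 and 1842, then 284.9 and 334.5). FOXC2 fell 2.63-fold and was the 1 gene of this list at least 2-fold higher with DACH1 labelled serum and at 100 or more on an array (70.2 and 170.5). Labelled serum-free it read 37.9 and 45.7. TWIST2, the paralogue of TWIST1, read 44.9 and 20.7 labelled serum, 2.17-fold lower with DACH1, and 35.8 and 29.9 labelled serum-free.

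Among 15 other measured cadherins none reached 100 on any array. Of these, 4 were tested. CDH6 read 10.1 and 10.6 labelled serum and 23.6 and 19.9 labelled serum-free, and CDH18 read 6.2 and 2.0, then 19.5 and 30.1. Both entered the fit only through the arrays labelled serum-free, so their calls are no support for a direction. Of 8 tested catenins and adaptors, which tie cadherins to actin, VCL alone rose, 2.29-fold. CTNNAL1, an alpha-catenin relative, was 2.05-fold higher with DACH1 under the serum label (505.6 and 1038) and 1.06-fold lower under the serum-free label (962.3 and 907.7). CTNNB1, the beta-catenin gene, read 1490 and 1661, then 1034 and 1049. Among 7 tested epithelial genes MUC1 alone rose, 8.97-fold (37.7 and 26.1, then 296.0 and 267.4), while CDH1 stayed under the floor.

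Of 8 intermediate filament genes other than VIM, LMNB1 rose 3.93-fold, SYNC 3.24-fold and LMNA 2.77-fold, and 0 fell. The remaining call, SYNM (7.3 and 6.9, then 28.2 and 26.1), passed the filter only through the label where it is high. Around CD44, 3 of 15 genes rose and 2 fell, close to the shares of all genes. HAS2, which makes hyaluronan, the ligand of CD44, fell 13.1-fold (868.7 and 1020, then 85.0 and 60.3, limma adjusted p 0.0167), and SRGN, a proteoglycan gene whose product binds CD44, fell 1.94-fold. HMMR, the gene of another hyaluronan receptor, rose 3.06-fold, EZR, a linker of CD44 to actin, 2.62-fold, and the ligand gene SPP1 2.51-fold. HAS3 read 178.9 and 49.8 labelled serum, 3.59-fold lower with DACH1, and 16.3 and 23.0 labelled serum-free, 1.41-fold higher. MSN, another linker, read 1441 and 3101, then 2392 and 2369.

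Of 19 mesenchymal markers outside the 10 genes, 7 were called higher and 1 lower, with a median of 1.01, beside 15.4% and 12.7% of all genes. One of the 7, S100A4 (2.4 and 3.6, then 57.7 and 70.6), passed the filter only through the label where it is high, which leaves 6. COL1A2 rose 13-fold, COL1A1 6.36-fold and SPARC 6.27-fold, and TIMP1 fell 3.22-fold. FAP, a serine protease gene of activated fibroblasts, read 769.1 and 172.3 labelled serum, 4.46-fold lower with DACH1, and 1087 and 894.8 labelled serum-free, 1.21-fold lower. CHI3L1 was 3.62-fold lower labelled serum (77.4 and 21.4) and 1.18-fold higher labelled serum-free (87.4 and 103.1). Of 11 regulators of the mesenchymal glioma state, 1 rose (FOSL2) and 1 fell (RELB, 5.05-fold). CEBPD read 332.4, 133.5, 67.3 and 89.8 on the 4 arrays in the order used above, with the silenced array labelled serum highest as for ZEB2. BHLHE40 went the other way, at 597.1, 2446, 1963 and 1883. These medians stand beside 0.02 for all genes.

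**Figure D4:**
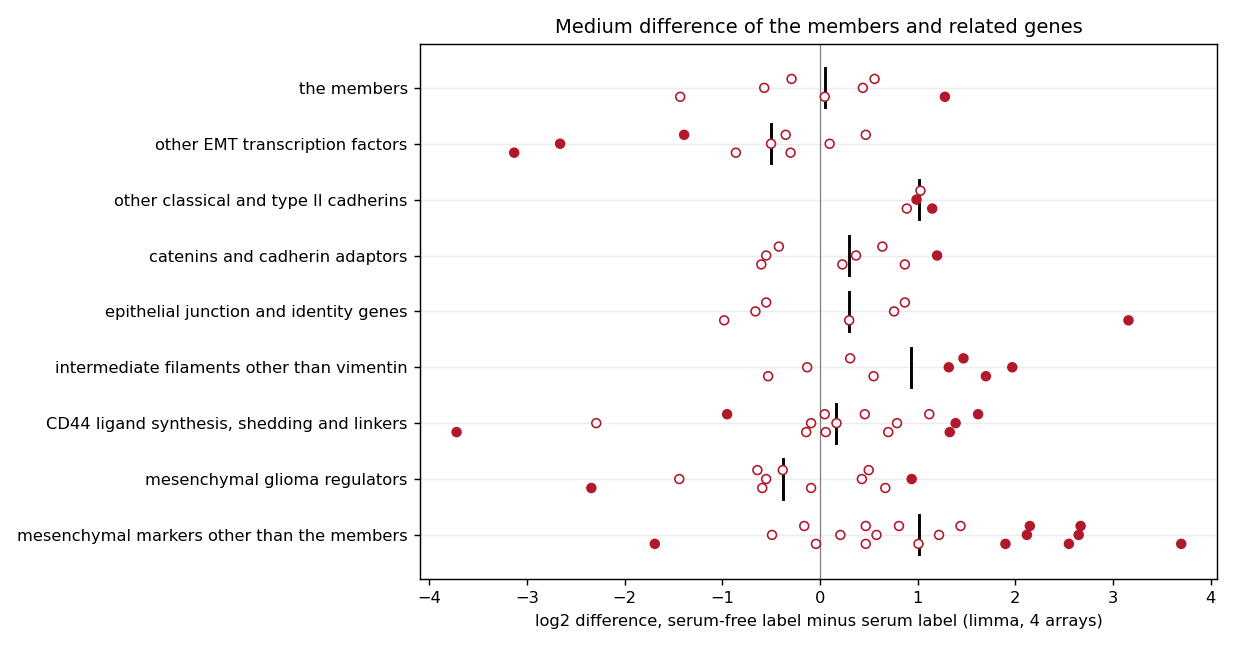
Log2 difference between media (serum-free minus serum label, limma on 4 arrays) of each tested gene in the lists around the 10 genes, filled where the adjusted p was at most 0.05, with the list median as a bar. The filled point among the members is CDH2 (1.28), the 3 filled points among the other transition factors lie at or below -1.39, and the mesenchymal markers have 7 filled points above 0 and 1 below.

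Genes with the most similar profile were found for the members at 100 or more on every array, by the root mean square distance of the 4 log2 signals after subtracting each gene's mean, among 5982 other genes. For ZEB2 these were CLGN (1642, 719.2, 424.9 and 412.0, distance 0.145), GCLC and C11orf96. For CDH2 they were UAP1 (524.5, 526.6, 1471 and 1093, distance 0.067), POLD4 and NHERF1, and for SNAI2 they were DANCR (616.2, 1001, 723.8 and 867.3, distance 0.019), CHEK1 and IRF9. The median gene lay at 0.87, 0.72 and 0.38 from these 3. For ZEB1 they were LSM10, POLK and MRPS28 (0.005 to 0.010), for VIM TFRC, PIGO and COX2 (0.011 to 0.028), and for CD44 APLP2, DTX2P1-UPK3BP1-PMS2P11 and SAAL1 (0.010 to 0.012). These distances rest on 4 arrays and carry no test.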

How the data were processed

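The authors deposited a linear intensity for each probe set, computed with MAS5, per the submitters' processing notes. Neither its version nor its target intensity is stated there. MAS5 subtracts mismatch signal, so low intensities are noisy, and no detection calls were used.

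Probe sets were named from GEO's platform annotation, and for 99.9% the symbol was brought up to date by Entrez identifier. Of 54613 probe sets, 41091 had 1 gene, 1801 had several and 11721 were unnamed. Of several probe sets, the one of highest mean log2 value stood for the gene. Signals under the 40th percentile (10.9) were set to it. A gene entered a pair if 1 of 2 arrays, and the fit if 2 of 4, reached the median (17.2). The limma fit (lmFit, eBayes) of log2 values had terms for medium and DACH1 state, 1 residual degree of freedom and Benjamini-Hochberg adjustment over all genes. Probe sets were also fitted one by one.

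The 10 genes and the lists were chosen with earlier results of these data known. Named from the lists were up to 3 called genes per direction, or up to 2 past 2-fold between DACH1 states and at 100 or more on an array. All are in the text apart from 3 genes of the label checks (HMGCS1, SQLE and ACTA2). TWIST2, CTNNB1, SYNM, S100A4, TJP1, FOS, ETV4, CLDN1, KRT8 and the other marker genes were added after their values were seen. The 3 nearest profiles are by the rule stated there. limma was version 3.58.1 under R 4.3.3, tables were made with pandas 2.3.3 and numpy 2.4.6, and plots with matplotlib 3.10.9 under Python 3.11.15.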

Additional observations from a re-analysis of the deposited data

Results flagged for a closer look

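With 1 array a condition, the differences below were not tested. The share of all genes with opposite signs was not counted, so the numbers of genes below have no background beside them. For 4 genes the DACH1 difference was of opposite sign in the arrays of both media labels. The log2 difference labelled serum-free minus that labelled serum was 1.70 for ZEB2, -0.70 for CDH2, -0.35 for VIM and -0.27 for CD44. For ZEB2 the sign labelled serum-free depends on the probe set: it was 0.29 for the brightest and -0.01 for the next. For VIM the difference labelled serum was 0.07. For CD44 every filtered probe set showed the same pair of signs, though with quantile normalization the brightest read 0 labelled serum-free.

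For 2 genes the medium difference was of opposite sign in silenced and induced cells, with a difference between states of -0.43 for SNAI2 and 1.41 for TWIST1. The value for TWIST1 goes with its signal of 55.5 on the induced array labelled serum.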

How the results depend on the processing

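Of 7 genes, CDH2 alone passed in the medium comparison, and this count became 0 without a floor and without a filter, 2 without _x_at and _s_at probe sets and with a trended variance prior (CDH2 and ZEB2), and 3 with a floor of 50 and 2 arrays at 100 or more (ZEB1 as well, adjusted p 0.0455 by limma). The 3396 genes called between media became 2013 without a floor, 0 without a filter (4531 with an unadjusted p under 0.05) and 6798 probe sets when each was tested. Of all genes tested, 2965 of 9455 were called without _x_at and _s_at probe sets and 4253 of 12103 with a trended prior. With a floor of 50, 3762 of 7588 genes were called, so the higher member counts come with more calls over all genes. For DACH1 state, 0 genes became 1 with every array above the median and with a trended prior.

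Genes past 2-fold between DACH1 states labelled serum fell from 937 to 579 with every array above the median and 423 with a floor of 50. Labelled serum-free, 474 became 808 without a floor, 294 with a pseudocount, 87 with every array above the median, 11 with a floor of 50 and 246 with the mean of all probe sets. Between media, 3552 became 2273 in silenced and 2987 became 1924 in induced cells with a floor of 50. With the mean of all probe sets the members past 2-fold became 1 (TWIST1) for DACH1 labelled serum and 2 between media in induced cells. The stricter filters also test fewer genes, and for the other settings the cause was not tested.

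Directions turned for SNAI2 between media with quantile normalization (-0.04), for VIM with DACH1 labelled serum (-0.0026), and for ZEB2 with DACH1 labelled serum-free with the mean of all probe sets (-0.03) and without _x_at and _s_at probe sets (-0.01). Leaving out an array leaves no error. The medium difference then ran from -0.17 to 0.26 for SNAI2, -0.15 to 1.26 for TWIST1, -2.29 to -0.58 for ZEB2 and 0.93 to 1.63 for CDH2. The DACH1 difference ran from -1.41 to 0.29 for ZEB2, -0.55 to 0.15 for CDH2, -0.28 to 0.07 for VIM and -0.07 to 0.19 for CD44. Counting probe sets after quantile normalization was added after seeing the data. The labels give no replicate numbers, so arrays were paired only through the terms of the fit, medium and DACH1 state. With only the tested term kept, the count of members called stayed at 1 between media and 0 between DACH1 states. Signals near the floor of 10.9, those of SNAI1 and CDH11, give no order.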
